A study of Rattus norvegicus with 8 samples.

Results

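The genes described here encode the standing subunits of the proteasome, the protease that degrades ubiquitin-tagged proteins, measured in rat liver after lipopolysaccharide (LPS), the endotoxin of Gram-negative bacteria. They were chosen by name: probes with a symbol of Psma, Psmb, Psmc or Psmd and a number, without the inducible subunits Psmb8, Psmb9 and Psmb10. That gave 36 of 23615 probes on the array and 32 genes. One of these, Psmc3ip, is a recombination factor that the pattern takes but that is no subunit. The other 31 genes were 14 of the 20S core (17 probes) and 17 of the 19S cap (18 probes), and all 31 had a value on every array. Psmd1, Psmd3 and Psmd4 were not analysed here.

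Livers of Sprague Dawley rats of unstated age were compared, 4 from animals given LPS by intraperitoneal injection at 3 mg/kg and 4 from controls, all taken at 24 h per the labels. Control animals appear in the labels both as non-treated and as injected with the vehicle, sodium chloride at 0.9%. The table's headers disagree with the labels on dose and time, with day 2 throughout, 0 mkd for controls, 1000 mkd for LPS arrays 2 to 4 and 100 mkd for LPS array 1, and it is not known which source is right. On each array 1 liver was labelled with Cy5 and the common pool of control livers with Cy3, and every value below is the log2 ratio of liver over pool unless another scale is named. Replicates are biological per the labels. Arrays are numbered in table order, not by the labels' replicate numbers.

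The 20S core is a barrel of stacked rings. Its outer rings of alpha subunits (Psma genes) gate the entrance, and its inner rings of beta subunits (Psmb genes) hold the proteolytic sites, which Psmb5, Psmb6 and Psmb7 supply. The 19S cap binds ubiquitin chains, removes them and unfolds the substrate with a ring of ATPases (Psmc genes) that sits under a lid and scaffold of non-ATPase subunits (Psmd genes). In cells exposed to interferon, Psmb8, Psmb9 and Psmb10 take the place of the standing catalytic subunits and form the immunoproteasome. The transcription factors Nfe2l1 and Nfe2l2 are known to act on proteasome genes through antioxidant response elements.

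Over all 21052 features tested with limma, 2572 (12.2%) were higher and 2618 (12.4%) lower after LPS at a Benjamini-Hochberg adjusted p under 0.05, and the median difference was -0.04. The median log2 ratio of every array was already 0, and both channels were equal for 19.1% (LPS array 3) to 38.4% (control array 1) of probes. Centring of array medians therefore used only the probes whose channels differed. It moved the median difference over all features by 0.11 on the log2 scale and turned the split into 3828 higher and 1498 lower. Among the 3391 features with a mean liver intensity of at least 1 unit, to which 22 of the 31 subunits belong, 23.9% were higher and 20.3% lower. In the same livers 10 of 17 leukocyte markers tested were higher and 7 were not called. The summed liver intensity of all 17 was 27.1 to 32.6 units after LPS against 13.3 to 16.1 in controls. Of the other marker lists, 2 of 4 Kupffer cell markers were lower, with a sum of 3.37 to 6.86 against 10.8 to 16.1 units. Of 8 listed hepatocyte markers 5 were tested, of which 1 was higher, 1 lower (Alb, serum albumin) and 3 not called. The hepatocyte sum was 19.4 to 27.2 against 26.2 to 33.2 units. Alb dominates this sum and lacks some probe values, so the sum is not like for like between arrays. The mean of Alb over all arrays (18.3 units) exceeds both group means (17.6 in controls, 15.3 after LPS). Of 5 endothelial markers 2 were higher and 2 lower (sum 26.9 to 35.9 against 39.6 to 46.0 units), and of 5 stellate cell markers 2 were higher and 1 lower (sum 4.03 to 5.25 against 4.40 to 5.87 units). Single genes weigh heavily in these sums. From controls to LPS the mean liver intensity went from 0.235 to 9.35 units for S100a9 and from 3.73 to 7.59 for Tyrobp, both leukocyte markers. It went from 9.58 to 1.9 units for the Kupffer cell marker Clec4f and from 30.2 to 18.1 for the endothelial marker Kdr. No tested marker had a mean liver intensity of 0; the B cell markers Ms4a1 and Cd79b and the hepatocyte marker Serpina1, the only hepatocyte marker called higher, were under 0.05 units. The part of a changed cell makeup in the subunit differences was not tested, and in bulk liver fewer cells of a type and less RNA per cell cannot be told apart.

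Promoter windows of the genes with the largest called rise of the core, the largest called rise of the cap and the only called fall are shown, since antioxidant response elements are a known route of subunit gene regulation. They are RefSeq windows of build GRCr8, from 250 bases before to 50 bases after the start site, in which capitals mark TGACNNNGC, the antioxidant response element core, and CCAAT, each searched on both strands, so that a CCAAT on the other strand reads ATTGG.
Psmb2 promoter, chr5:144254808-144255107, plus strand: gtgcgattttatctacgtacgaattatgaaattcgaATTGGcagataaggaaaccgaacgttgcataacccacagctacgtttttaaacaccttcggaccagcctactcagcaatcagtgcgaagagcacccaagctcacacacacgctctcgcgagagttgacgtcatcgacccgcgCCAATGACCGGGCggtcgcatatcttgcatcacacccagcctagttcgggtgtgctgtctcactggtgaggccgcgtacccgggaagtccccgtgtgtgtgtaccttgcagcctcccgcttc
Psmc2 promoter, chr4:14162341-14162640, minus strand: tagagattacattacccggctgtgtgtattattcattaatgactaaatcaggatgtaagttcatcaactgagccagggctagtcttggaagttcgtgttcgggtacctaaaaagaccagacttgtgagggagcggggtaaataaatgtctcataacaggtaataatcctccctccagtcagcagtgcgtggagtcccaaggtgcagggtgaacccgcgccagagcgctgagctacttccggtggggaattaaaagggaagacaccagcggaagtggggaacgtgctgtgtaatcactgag
Psmd9 promoter, chr12:39018215-39018514, minus strand: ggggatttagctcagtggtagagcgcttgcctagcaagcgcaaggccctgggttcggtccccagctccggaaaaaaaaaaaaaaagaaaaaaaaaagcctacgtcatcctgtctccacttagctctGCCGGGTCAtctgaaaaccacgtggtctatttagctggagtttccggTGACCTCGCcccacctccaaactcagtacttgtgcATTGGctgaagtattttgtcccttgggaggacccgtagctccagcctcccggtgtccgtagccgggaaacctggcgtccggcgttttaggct
The Psmb2 window held 1 TGACNNNGC and 2 CCAAT, and the TGACNNNGC shares its first letter with the last letter of one CCAAT. The Psmc2 window held neither, and the Psmd9 window held 2 TGACNNNGC and 1 CCAAT. Of the 27 subunits with a window in the table, 5 held TGACNNNGC (18.5%, against 12.1% of 33469 promoters): Psma3, Psmb2, Psmb5, Psmb6 and Psmd9. CCAAT, a motif chosen after the values were seen, was in 15 of the 27 (55.6%, against 37.5% of all promoters), in 9 of 13 core windows and in 6 of 14 cap windows. Such matches are letters in a window and show nothing of binding.

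The median difference between LPS and control livers was larger over the core genes than over the cap genes. Of 14 core genes, 5 rose (35.7%, against 12.2% of all features) and 0 fell; the same fit had 10 higher and 0 lower at an unadjusted p under 0.05, where 17.5% of all features were higher and 20.5% lower. All 14 differences were above 0, where 43.2% of all features and 52.2% of the features of at least 1 unit were. In 6 of the 14 every LPS array was above every control array, which held for 13.1% of all features and 25.5% of those of at least 1 unit. The median difference of the core was 0.26 (range 0.05 to 0.96), which is 0.30 above that of all features. Of 17 cap genes, 1 rose (5.88%) and 1 fell (against 12.4% of all features), each without overlap between the groups (against 13.1% higher and 14.7% lower of all features), and the median difference was 0.11 (range -0.26 to 0.42), which is 0.16 above that of all features (0.09 for the cap genes of at least 1 unit against features of at least 1 unit, and 0.25 for such core genes). Without the assembly chaperones Psmd5, Psmd9 and Psmd10 the cap had 1 of 14 genes higher and a median of 0.14. Brightness differs between the classes: 13 of 14 core genes but 9 of 17 cap genes had at least 1 unit, and among these the core had a median of 0.27 with 5 of 13 higher (against 23.9% of such features) and the cap a median of 0.11 with 1 of 9 higher. The 5 subunits under 0.3 units, where the deposited step of 0.01 units is coarse, are all cap genes (Psmd2, Psmd8, Psmd10, Psmd13 and Psmd14). The counts depend on scaling and on single arrays. With array medians centred 10 core and 4 cap genes rose, against 18.2% of all features; with quantile-normalized ratios 0 and 0 did, against 3.92%; in the liver channel alone 2 and 0 did, against 7.13%. Without LPS array 2, 3 core genes rose (against 10.2% of all features), and without control array 1, 2 cap genes did (against 9.71%).

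**Figure D1:**
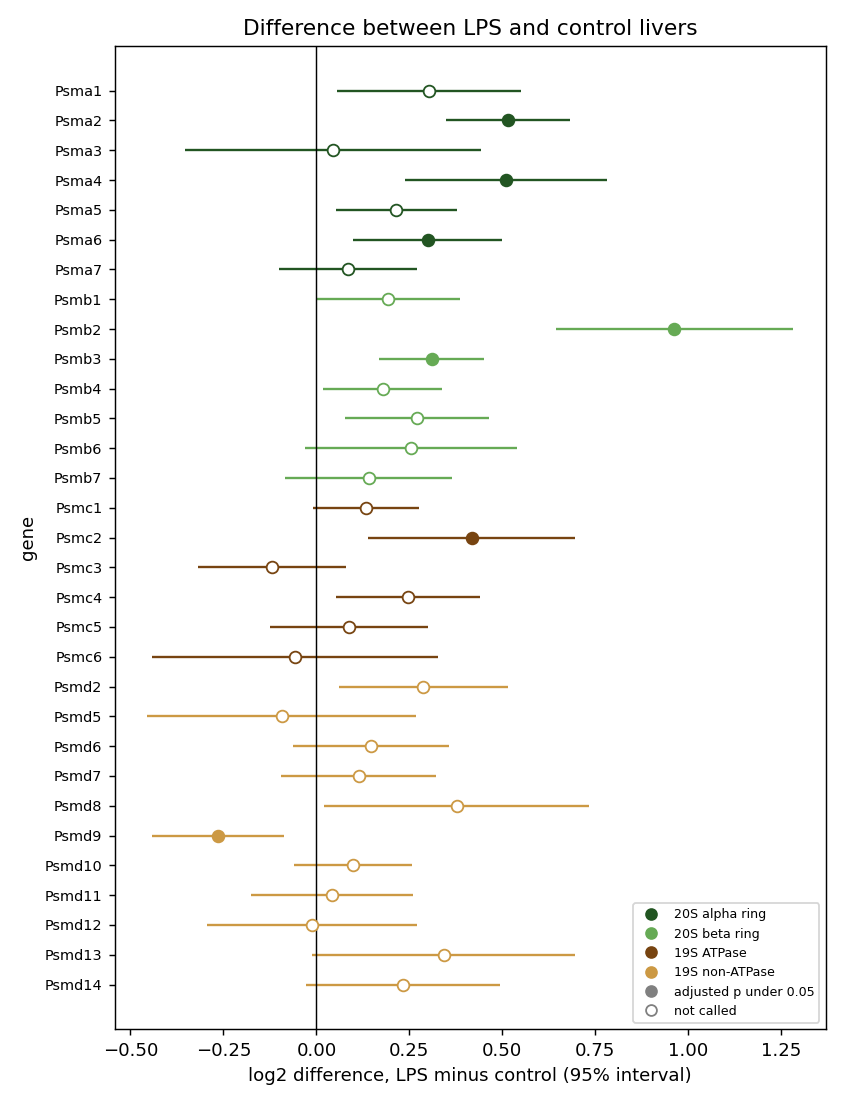
Difference between LPS and control livers (log2, x axis) for each of the 31 subunit genes (y axis), with bars for the 95% interval; filled points have an adjusted p under 0.05 (limma, 4 arrays per group). All 14 core genes lie above 0, with Psmb2 farthest at 0.96, and the cap genes lie between -0.26 and 0.42.

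On the array level, the mean over the core genes was 0.14, -0.06, -0.03 and -0.02 on control arrays 1 to 4 and 0.28, 0.40, 0.27 and 0.31 on LPS arrays 1 to 4. The groups did not overlap, with 0.01 ± 0.09 in controls and 0.31 ± 0.06 after LPS (SD, n = 4 each). The mean over the cap genes was 0.09, -0.14, -0.13 and 0.14 on the controls and 0.02, 0.12, 0.12 and 0.17 after LPS. Here the groups overlapped, since control arrays 1 and 4 lay above LPS array 1 and control array 4 lay above all but LPS array 4. Core minus cap was 0.05, 0.09, 0.09 and -0.15 on the controls and 0.26, 0.28, 0.15 and 0.14 after LPS, which is 0.02 ± 0.12 against 0.21 ± 0.07 (SD, n = 4 each). On these means every LPS array stood above every control array, by 0.19 on average, and restricting both classes to genes of at least 1 unit gave 0.24. Taken over class medians in place of means, core minus cap was 0.02, 0.06, 0.08 and -0.13 in controls and 0.25, 0.20, 0.09 and 0.06 after LPS. There the groups overlapped, since LPS array 4 lay below control array 3, and they differed by 0.14 on average. Control array 4 lowered the control value: without it the difference taken over class means was 0.13, against 0.19 with all arrays. Cut into 2 array sets by correlation of the pool channel, control array 1 falls with LPS arrays 2 to 4. Control arrays 2 to 4 then fall with LPS array 1. The number of sets was fixed in advance. Correlations ran from 0.988 to 0.997 within sets and from 0.976 to 0.992 between them, so the sets are not cleanly separate. Within these sets, core minus cap differed by 0.14 and 0.25, the core median by 0.12 and 0.28, and the cap median by 0.09 and 0.03, with 1 array in one of the groups each time and so no test.

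**Figure D2:**
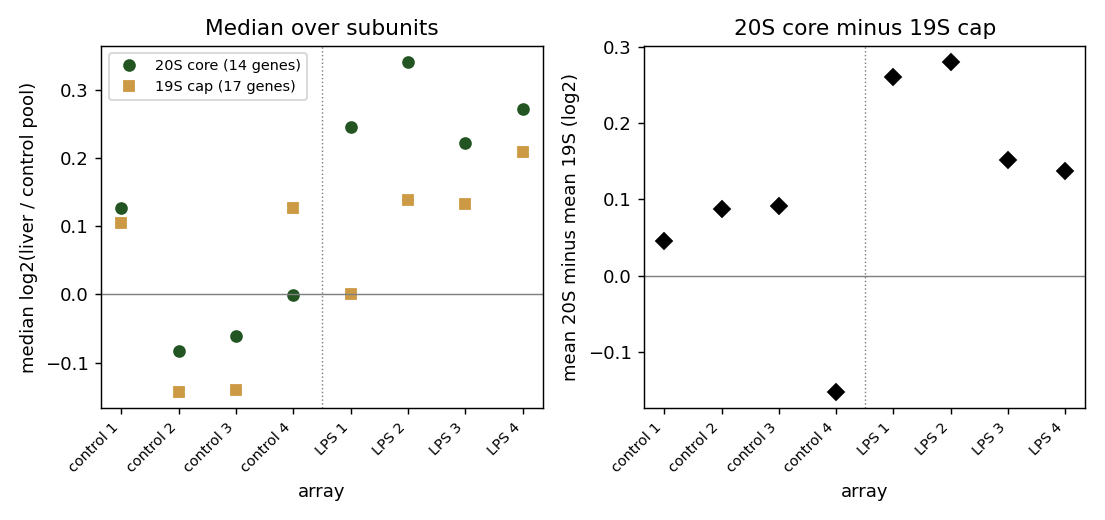
Left, the median log2 ratio of liver over control pool (y axis) of the 14 core and 17 cap genes on each of 8 arrays (x axis); right, the mean of the core minus the mean of the cap. Core medians after LPS lie at 0.22 to 0.34, above all controls, and core minus cap is 0.14 to 0.28 after LPS against -0.15 to 0.09 in controls.

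The control array with the highest value differed between the classes, and no test was made of this. Control array 1 was the highest control for 9 of the 14 core genes, and control array 4 was the highest control for all 11 Psmd genes but for 1 of the 14 core genes. LPS array 1 was the lowest LPS array for 8 of the 11 Psmd genes, tied with LPS array 2 for Psmd2. Of the 14 core genes, 13 were above 0 on control array 1 and 5 on control array 2, against 12 to 14 on the LPS arrays.

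**Figure D3:**
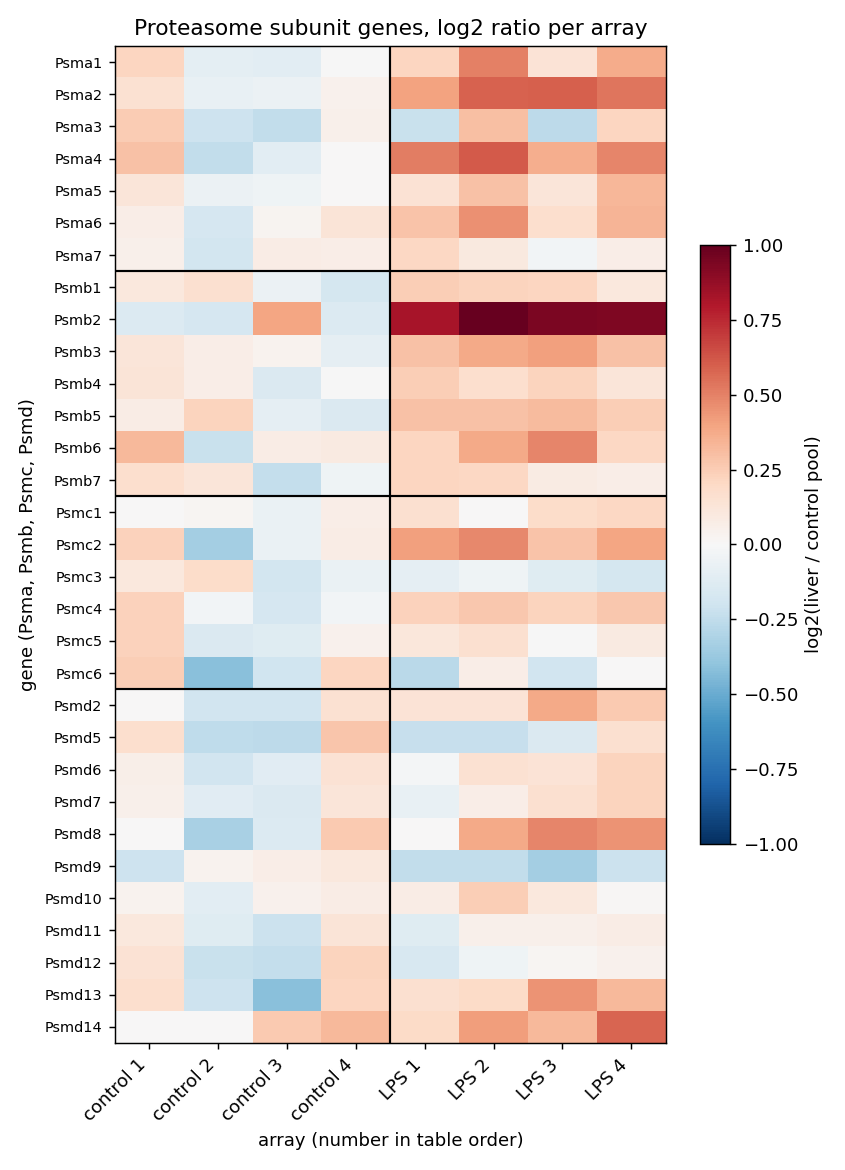
Log2 ratio of liver over control pool (colour, from -1 to 1) for the 31 subunit genes (rows, grouped as Psma, Psmb, Psmc and Psmd) on 4 control and 4 LPS arrays (columns). Psmb2 is the darkest row after LPS (0.83 to 1.11), and the Psmd rows are high on control array 4.

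Of the 7 alpha ring genes, 3 rose and 0 fell (limma), with a median of 0.30. The share that rose was 42.9%, against 12.2% of all features and 23.9% of features of at least 1 unit. At an unadjusted p under 0.05 (limma) 5 were higher and 0 lower, against 17.5% and 20.5% of all features. Psma2 and Psma4, alpha subunits of the outer rings, rose most. Psma2 was 0.15, -0.07, -0.06 and 0.04 on control arrays 1 to 4 and 0.40, 0.59, 0.60 and 0.53 on LPS arrays 1 to 4. The groups did not overlap, and the difference was 0.52 ± 0.07 (SE; limma, adjusted p = 0.00215), with 0.39 (adjusted p = 0.0743) in the liver channel alone. Psma4 was 0.29, -0.25, -0.11 and 0.00 in controls and 0.51, 0.61, 0.37 and 0.49 after LPS, a difference of 0.51 ± 0.12 (SE; limma, adjusted p = 0.0173) with no overlap, although control array 1 was close to LPS array 3. The call was lost without LPS array 2 (adjusted p = 0.0502), without control array 3 and LPS array 1 together (adjusted p = 0.0948), with a term for the array sets (adjusted p = 0.0663) and in the liver channel alone (adjusted p = 0.0574). Psma6, a further alpha subunit, was 0.07, -0.17, 0.02 and 0.13 in controls and 0.29, 0.46, 0.17 and 0.34 after LPS. Its groups were also apart, by 0.30 ± 0.09 (SE; limma, adjusted p = 0.0400), but the call was lost (adjusted p 0.0662 to 0.0935) without any one of control arrays 1, 2 and 3 or LPS arrays 1, 2 and 4, and with the array-set term (adjusted p = 0.130). In the liver channel alone Psma6 differed by 0.19 (limma, adjusted p = 0.385).

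The other alpha ring genes missed the threshold. Psma1 differed by 0.30 (limma, adjusted p = 0.0752) and Psma5 by 0.22 (limma, adjusted p = 0.0603). Psma3 and Psma7 have several probes that part in direction. The Psma3 probes differed by 0.18 and -0.09, and the second of them ran from -0.58 on LPS arrays 1 and 3 to 0.32 on LPS array 4. Of the Psma7 probes, 2 differed by 0.26 and 0.27 and the third, with a mean liver intensity of 0.0838 units, by -0.27. No single probe of either gene was called. Averaged over probes, Psma3 was 0.25, -0.21, -0.24 and 0.05 in controls and -0.22, 0.30, -0.26 and 0.22 after LPS, a difference of 0.05. Psma7 was 0.05, -0.19, 0.07 and 0.07 in controls and 0.21, 0.10, -0.03 and 0.07 after LPS, a difference of 0.09. Both genes had overlapping groups. With probes of under 0.1 units left out, which drops the third Psma7 probe, Psma7 differed by 0.26 and was called (limma, adjusted p = 0.0278).

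Of the 7 beta ring genes, 2 rose and 0 fell (limma), with a median of 0.25. The share that rose was 28.6%, against 12.2% of all features and 23.9% of features of at least 1 unit. At an unadjusted p under 0.05 (limma) 5 were higher and 0 lower, against 17.5% and 20.5% of all features. Psmb2, a beta subunit without a proteolytic site of its own, had the largest difference of the 31 genes. Its log2 ratio was -0.14, -0.17, 0.40 and -0.14 on control arrays 1 to 4 and 0.83, 1.11, 0.94 and 0.93 on LPS arrays 1 to 4. Control array 3 stood apart from the other controls but below every LPS array. In the liver channel the intensity was 0.90, 0.74, 1.08 and 0.89 units in controls and 1.42, 1.81, 1.42 and 1.62 units after LPS, while the pool channel stayed between 0.74 and 0.99 units on all 8 arrays. The difference was 0.96 ± 0.14 (SE; limma, adjusted p = 0.00241), a 1.95-fold rise (95% interval 1.56 to 2.43). It rests on 1 probe, as do the differences of all other called subunit genes. Its promoter window is the first of those shown above.

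Psmb3, also a beta subunit without a proteolytic site, was 0.12, 0.07, 0.03 and -0.09 in controls and 0.29, 0.38, 0.41 and 0.29 after LPS. The groups did not overlap and differed by 0.31 ± 0.06 (SE; limma, adjusted p = 0.00888). The calls of Psmb2 and Psmb3 held without any single array. Psmb1 and Psmb4, beta subunits, differed by 0.19 (limma, adjusted p = 0.130) and 0.18 (limma, adjusted p = 0.0991).

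None of the 3 standing catalytic genes was called. Psmb5, the chymotrypsin-like site, was 0.07, 0.22, -0.09 and -0.14 in controls and 0.30, 0.29, 0.31 and 0.25 after LPS, so that the groups did not overlap, and it differed by 0.27 ± 0.08 (SE; limma, adjusted p = 0.0512). Psmb5 did pass the threshold with array medians centred (adjusted p = 0.00841), with array weights (adjusted p = 0.0194), among features of at least 0.1 units (adjusted p = 0.0347) and without control array 2 (adjusted p = 0.0106). Psmb6, the caspase-like site, was 0.32, -0.22, 0.08 and 0.09 in controls and 0.21, 0.38, 0.49 and 0.21 after LPS, and differed by 0.25 ± 0.12 (SE; limma, adjusted p = 0.174) with overlapping groups. Psmb7, the trypsin-like site, was 0.17, 0.12, -0.24 and -0.04 in controls and 0.21, 0.21, 0.08 and 0.07 after LPS, and differed by 0.14 ± 0.10 (SE; limma, adjusted p = 0.325). In the same livers their inducible counterparts differed by 0.69 for Psmb8 (limma, adjusted p = 0.0788), 1.67 for Psmb9 (limma, adjusted p = 0.00771) and 1.67 for Psmb10 (limma, adjusted p = 0.00155). The Psmb8 groups did not overlap, and Psmb8 passed the threshold in 4 of 22 alternatives (limma). These were array medians centred (adjusted p = 0.0417), the liver channel alone (adjusted p = 0.0349), features of at least 0.1 units (adjusted p = 0.0424) and the array-set term (adjusted p = 0.0062).

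The within-array difference of each inducible gene over the standing gene it replaces was compared between groups with an exact permutation test (two-sided, 70 possible splits, smallest possible p 0.0286), with 3 pairs adjusted together. Psmb9 over Psmb6 changed by 1.42 (p = 0.0286, adjusted 0.0429, exact permutation) and Psmb10 over Psmb7 by 1.53 (p = 0.0286, adjusted 0.0429, exact permutation), with 4 of 4 LPS arrays above all controls for both. Psmb9 and Psmb10 alone already had every LPS array above every control, and the pairs were chosen with earlier results known. These p-values therefore add no support beyond the limma calls above. Psmb8 over Psmb5 changed by 0.42 (p = 0.171, adjusted 0.171, exact permutation), with 2 of 4 LPS arrays above all controls. LPS array 1 was the highest array for every one of these ratios.

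**Figure D4:**
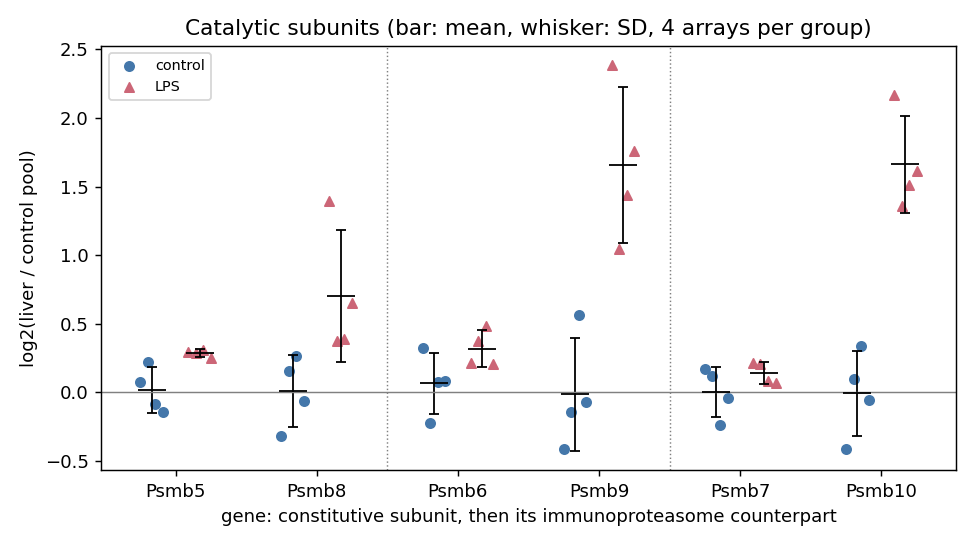
Log2 ratio of liver over control pool (y axis) of each standing catalytic gene beside its inducible counterpart (x axis); points are arrays, circles for control and triangles for LPS, and bars and whiskers are mean and SD (n = 4). The standing genes stay between -0.24 and 0.49, and Psmb9 and Psmb10 reach 2.39 and 2.17 on LPS array 1.

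Of the 6 ATPases of the cap, 1 rose and 0 fell (limma), with a median of 0.11. The share that rose was 16.7%, against 12.2% of all features and 23.9% of features of at least 1 unit. At an unadjusted p under 0.05 (limma) 2 were higher and 0 lower, against 17.5% and 20.5% of all features. Psmc2, an ATPase of the base ring, was 0.23, -0.34, -0.06 and 0.07 in controls and 0.41, 0.48, 0.28 and 0.39 after LPS. The groups did not overlap, and the difference was 0.42 ± 0.12 (SE; limma, adjusted p = 0.0390). Leaving out any one of control arrays 3 and 4 or LPS arrays 1 to 4 took the adjusted p to 0.0565 to 0.0980, and the array-set term to 0.140. In the liver channel alone Psmc2 differed by 0.20 (limma, adjusted p = 0.453), and with array weights the adjusted p was 0.0509. The other ATPases missed the threshold, with differences of 0.25 for Psmc4 (limma, adjusted p = 0.0692), 0.13 for Psmc1, 0.09 for Psmc5, -0.06 for Psmc6 and -0.12 for Psmc3. Psmc3ip, the recombination factor, differed by 0.13 (limma, adjusted p = 0.225).

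Of the 11 non-ATPase genes, 0 rose and 1 fell (limma), against 12.2% and 12.4% of all features. At an unadjusted p under 0.05 (limma) 2 were higher and 1 lower, against 17.5% and 20.5% of all features. The one that fell was Psmd9, which is not part of the finished cap but a chaperone that helps to assemble its base. Psmd9 was -0.20, 0.03, 0.07 and 0.10 in controls and -0.25, -0.25, -0.34 and -0.21 after LPS. The groups were apart by a narrow margin, since control array 1 lay just above LPS array 4, and the difference was -0.26 ± 0.08 (SE; limma, adjusted p = 0.0401). Leaving out any one array other than control array 1 took the adjusted p to 0.0681 to 0.0978, the array-set term to 0.136 and centring on array medians to 0.228 (difference -0.15). In the liver channel alone Psmd9 differed by -0.26 (limma, adjusted p = 0.206). The other base chaperones were not called, with -0.09 for Psmd5 and 0.10 for Psmd10.

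Psmd2, a scaffold subunit of the base, was 0.00, -0.19, -0.19 and 0.15 in controls and 0.14, 0.14, 0.38 and 0.26 after LPS, and differed by 0.29 ± 0.10 (SE; limma, adjusted p = 0.0697) with overlap at control array 4. Psmd14, the deubiquitinase of the lid, was 0.00, 0.00, 0.26 and 0.32 in controls and 0.19, 0.42, 0.32 and 0.58 after LPS, and differed by 0.23 ± 0.11 (SE; limma, adjusted p = 0.175). Repeated values such as 0.00 reflect the 2 decimals of the intensities of these dim probes. Larger but uncalled differences were those of Psmd8, 0.38 (limma, adjusted p = 0.114), and Psmd13, 0.34 (limma, adjusted p = 0.143), both lid subunits. The lid subunits Psmd6, Psmd7, Psmd11 and Psmd12 differed by 0.15, 0.11, 0.04 and -0.01.

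Of 37 listed partner genes of the proteasome, 27 were tested. Of these, 7 rose (25.9%, against 12.2% of all features and 23.9% of features of at least 1 unit). A further 3 fell (11.1%, against 12.4% of all features and 20.3% of features of at least 1 unit). Partner genes lie on both sides of 1 unit, and the share that rose is close to that of the brighter features. Among the activators, Psme2, a subunit of the 11S cap that opens the core, rose by 0.96 (limma, adjusted p = 0.00628; 0.42 with adjusted p = 0.212 in the liver channel alone), while its partner subunit Psme1 differed by 0.33 (limma, adjusted p = 0.202). Of 5 assembly factors, Psmg4, a chaperone of the alpha ring, rose by 0.46 (limma, adjusted p = 0.0130), and Pomp, which assists beta ring assembly, differed by 0.31 (limma, adjusted p = 0.0558). Psmg4 turned to -0.28 in the liver channel alone.

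Of 5 further cap-bound proteins tested, 1 rose and 1 fell, against 12.2% and 12.4% of all features. Sem1, a small lid subunit, rose by 0.40 (limma, adjusted p = 0.00502). Adrm1, a ubiquitin receptor of the cap, was 0.20, 0.06, -0.10 and 0.00 in controls and -0.25, -0.25, -0.13 and -0.23 after LPS, a difference of -0.25 ± 0.07 (SE; limma, adjusted p = 0.0398). Its groups did not overlap, but leaving out any one of control arrays 1, 2 and 4 or LPS arrays 1, 2 and 4 lost the call (adjusted p 0.0616 to 0.0904).

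Of 8 genes of ubiquitin supply and delivery tested, Rps27a, a ribosomal protein gene that also encodes ubiquitin, rose by 0.27 (limma, adjusted p = 0.0175), and Ubqln2, a shuttle for ubiquitinated proteins, fell by 0.34 on the log2 scale (limma, adjusted p = 0.0243). Rps27a differed by 0.0073 (adjusted p = 0.974) in the liver channel alone, and its call was also lost with the array-set term (adjusted p = 0.0694). The Ubqln2 call was lost (adjusted p 0.0515 to 0.0643) without any one of control arrays 1 and 4 or LPS arrays 1 and 4. Of the 3 tested genes known to act on the transcription of subunit genes, Nfe2l2 rose by 0.57 (limma, adjusted p = 0.0213). Ddi2, a protease that activates Nfe2l1, fell by 0.27 on the log2 scale (limma, adjusted p = 0.0152). Nfe2l1 itself was listed but not tested. The Ddi2 call was lost with array medians centred (-0.16, adjusted p = 0.135) and with the array-set term (adjusted p = 0.0569). The Nfe2l2 values after LPS were 0.37, 0.43, 0.42 and 0.92, so LPS array 4 was far above the others, and its call was lost (adjusted p 0.0531 to 0.0543) without any one of control arrays 1, 2 and 3. In the liver channel alone Nfe2l2 differed by 0.16 (adjusted p = 0.561), and with the array-set term its adjusted p was 0.0805.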

How the data were processed

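Per the labels, 8 rat livers were read on Agilent arrays with 2 channels after 2 rounds of amplification of 100 ng RNA. What the authors deposited is 1 intensity per probe and channel, already processed, on a linear scale of arbitrary units and cut to 2 decimals. The submitters' processing notes name Agilent Feature Extraction 8.5.1.1, and no source used here states the background correction or the dye normalization. The deposited series matrix holds the authors' log10 ratio of the same arrays, in the same direction and with a median of 0 in each column. It served as an alternative. The number of arrays limits the precision.

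Log2 ratios (liver over pool) were computed from the deposited intensities, probes of a symbol were averaged, and 21052 features with at least 3 values per group were compared with limma 3.58.1 (lmFit, eBayes) in R 4.3.3, with Benjamini-Hochberg adjustment and a threshold of 0.05. The fit was tested on simulated data. Table columns carry no replicate number that the labels share, so arrays were assigned to groups only. By its values each series matrix column did match a table array (r = 1). The median log2 gap was 7.2e-05 to 1.5e-04, against 0.12 or more to the next array. Arrays were not renumbered by this match. Genes with values given in every array were the 3 largest rises and falls called in each gene family, the catalytic, scaffold and deubiquitinase genes and genes whose probes part. Of partners, every called gene and a set named always are given by their difference, with Adrm1 also by array. Nfe2l1 belongs to that set but was not tested, so it has no value here. Members and lists were chosen with earlier results of these data known. Alternatives were other fits, normalizations, filters and left-out arrays; the array-set values and the restriction to 1 unit were chosen after seeing the data. Tables and figures used Python 3.11.15, pandas 2.3.3, scipy 1.17.1 and matplotlib 3.10.9.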

Additional observations from a re-analysis of the deposited data

Results flagged for a closer look

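Of 96 groups of 4 arrays checked over the subunit genes, Psmc3ip, the named partner genes and the core median, cap median and core minus cap, 6 had 1 array whose gap to its nearest neighbour took more of the group's range than Dixon's critical value allows, where chance flags about 1 in 20 groups. Psma7 was -0.19 on control array 2 against 0.05 to 0.07 on the other controls. Psmb2 was 0.40 on control array 3, and the other controls were -0.14 to -0.17. Psmd11 was -0.12 on LPS array 1, below 0.05 to 0.07 on the other LPS arrays. Adrm1 was -0.13 on LPS array 3, with the remaining LPS arrays at -0.23 to -0.25. Rps27a was -0.10 on control array 2 against 0.05 to 0.07. Nfe2l2 reached 0.92 on LPS array 4, and its remaining LPS values were 0.37 to 0.43.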

How the results depend on the processing

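The count of core genes that rose (5) became 10 with array medians centred, 9 among features of at least 0.1 units, 3 without control array 3 and LPS array 1 together, 3 with an array-set term, 2 in the liver channel alone and 0 with quantile-normalized ratios or a test against 1.5-fold; leaving out single arrays gave 3 to 6. The cap count that rose (1) became 4 with array medians centred and 3 at 0.1 units. It was 0 under quantile-normalized ratios, the liver channel alone, array weights (against 13.7% of all features) and the 1.5-fold test. With both arrays left out, the array-set term or the replicate block (against 9.42%) it was also 0, and without single arrays 0 to 2. The cap count that fell (1) became 0 under each setting that gave 0 for the rise and with array medians centred. It was 0 to 1 without single arrays, but was 1 at 0.1 units. Of all features, 7.12% fell centred, 3.29% quantile-normalized, 10.1% in the liver channel and 0.66% at 1.5-fold. With array weights 14.6% fell, without both arrays 9.91% and with the array-set term 8.88%. In the replicate block 8.57% fell, at 0.1 units 19.4% and without single arrays 9.23% to 11.9%. The core median (0.26) became 0.37 centred, 0.17 quantile-normalized, 0.16 in the liver channel alone and 0.12 in array set 1, and 0.24 to 0.30 without single arrays. Partner genes that rose (7) became 1 with quantile-normalized ratios, 1 with the 1.5-fold test and 4 in the liver channel. Those that fell (3) became 0 centred, quantile-normalized, at 1.5-fold and in the replicate block. They became 1 in the liver channel, 2 with the array-set term and 1 to 4 without single arrays. The shares of all features in these settings are those given above beside the subunit counts. Core minus cap kept its sign in every alternative run. The cause of these shifts was not tested, except that quantile normalization gives all arrays one spread and the 1.5-fold test asks for more.

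The replicate block, fitted on the series matrix whose columns carry the labels' numbers, gave 4 core genes higher; same-numbered arrays had correlations of deviations of -0.012, -0.012, 0.029 and 0.17, so the numbers were not taken to pair the samples. Psmb2 and Psmb3 lost their calls only with quantile-normalized ratios and the 1.5-fold test, among 23 alternatives each. Signs turned for uncalled genes near 0: centring gave 0.052 for Psmc6, 0.016 for Psmd5 and 0.098 for Psmd12; the liver channel gave -0.18 for Psma3, -0.14 for Psmb7, -0.069 for Psmd7, -0.061 for Psmd10 and -0.056 for Psmd11; array weights gave -0.016 for Psma3; the array-set term gave -0.13 for Psma3 and -0.048 for Psmd11. Psmg4, which was called, was -0.28 in the liver channel. Without single arrays Psma3 ran from -0.053 to 0.14, Psmd11 from -0.022 to 0.093, Psmc6 from -0.18 to 0.038, Psmd5 from -0.18 to 0.0056 and Psmd12 from -0.085 to 0.070; the turned values within these ranges were -0.012, -0.024, -0.053 and -0.023 for Psma3 without control array 2, control array 3, LPS array 2 and LPS array 4, 0.028 for Psmc6 without control array 4, and 0.045 and 0.030 for Psmd12 without control array 1 and LPS array 1. Signal limits the 5 cap genes under 0.3 units.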
